A study of Mus musculus with 6 samples.

Results

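Of the genes on the array, 36 are germline genes of the kind that somatic cells keep silent through DNA methylation. They were the 36 gene names of a fixed list, found by name among 31541, and they had 43 of the array's 39429 probes. Members were chosen by name, not by signal, and all of their probes were counted, dim ones included. Flow cytometry was used to sort the cells from C57BL/6 mice. They are M-MDSCs, the monocytic kind of myeloid-derived suppressor cell, an immature myeloid cell that restrains T cells. Treated mice had received azacytidine, which blocks DNA methyltransferases, with entinostat, which inhibits class I histone deacetylases. The labels state neither dose nor schedule. Each of 6 arrays held treated RNA in Cy5 and mock RNA in Cy3, with 3 arrays for lung and 3 for bone marrow. A treated sample pooled 3 to 6 mice, whereas a mock sample held 1 to 2. The mock mice were 6 to 8 weeks old, and no age was given for treated mice. Because all 6 arrays carried the same dye order, an effect of the dye and one of the drugs cannot be told apart. The same holds for tissue and slide, since the lung and marrow arrays were on separate slides.

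These genes serve meiosis, the piRNA pathway and other germ cell functions. In somatic cells, methylation of CpG-dense promoters and a Polycomb complex with E2F6, MGA and MAX keep most of them silent. Drugs that lower DNA methylation are known to switch on some of these genes in dividing cells, which makes the family a readout of such drugs. Fewer cells that express a gene and less RNA per cell cannot be told apart in these bulk samples.

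Promoter sequences came from RefSeq, build GRCm38.p6, from 250 bases before to 50 bases after each start. They matched 30 of the 36 genes, with none for Dmrt1, Dppa3, Piwil2, Tdrd6, Tex11 and Tex15. The first listed start of each gene was used. Members had a median of 18.5 CpG sites in 300 bases, against 7 over the 27025 genes with a promoter. The observed over expected CpG ratio exceeded 0.6 at 19 of 30 members (63.3%), against 36.4% of all genes. The 6-base motif CACGTG, an E-box, was present on either strand at 13 of 30 member promoters (43.3%), against 7.2% of all. The motif TCCCGC, an E2F-type site, was also present at 13 of 30 (43.3%), against 20.0% of all. The motifs can overlap by 1 letter, and a match describes letters, not a bound site. Promoters of genes with a tested probe had a median of 19 CpG sites, and those of genes without one had 18. The choice of start matters: over all listed starts, CACGTG was present at 15 of 30 members, against 8.1% of all genes. It was then present at 5 of 11 genes with a tested probe, against 3 by the first start, and at 10 of 19 of the others by either count. This count over all starts was chosen after seeing the data.

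Below are 6 promoters, 5′ to 3′ on the gene's strand, with CACGTG and TCCCGC (either strand, so also GCGGGA) in capitals. The first 3 belong to genes that were well above background on no array, and Ddx4 was detected in lung. Syce2 and Dnmt3l gave the highest treated over mock ratios among the members.
Mael: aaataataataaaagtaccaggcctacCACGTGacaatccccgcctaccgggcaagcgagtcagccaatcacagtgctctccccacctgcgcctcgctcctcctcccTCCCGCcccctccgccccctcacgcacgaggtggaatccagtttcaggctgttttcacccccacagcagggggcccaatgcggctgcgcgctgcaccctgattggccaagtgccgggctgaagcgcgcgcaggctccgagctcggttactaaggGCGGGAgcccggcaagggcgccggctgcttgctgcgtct
Sycp1: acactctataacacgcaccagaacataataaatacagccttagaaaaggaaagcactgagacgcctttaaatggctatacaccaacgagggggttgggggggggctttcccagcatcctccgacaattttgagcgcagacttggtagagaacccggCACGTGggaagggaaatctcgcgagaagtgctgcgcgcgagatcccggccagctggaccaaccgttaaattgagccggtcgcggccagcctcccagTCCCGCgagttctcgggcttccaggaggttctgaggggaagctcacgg
Sycp3: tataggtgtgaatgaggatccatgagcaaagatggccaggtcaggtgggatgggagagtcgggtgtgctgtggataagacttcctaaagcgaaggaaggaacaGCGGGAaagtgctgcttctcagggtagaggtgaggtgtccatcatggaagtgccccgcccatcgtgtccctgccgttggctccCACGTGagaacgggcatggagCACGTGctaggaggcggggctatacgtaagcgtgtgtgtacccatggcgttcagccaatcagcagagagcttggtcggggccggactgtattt
Ddx4: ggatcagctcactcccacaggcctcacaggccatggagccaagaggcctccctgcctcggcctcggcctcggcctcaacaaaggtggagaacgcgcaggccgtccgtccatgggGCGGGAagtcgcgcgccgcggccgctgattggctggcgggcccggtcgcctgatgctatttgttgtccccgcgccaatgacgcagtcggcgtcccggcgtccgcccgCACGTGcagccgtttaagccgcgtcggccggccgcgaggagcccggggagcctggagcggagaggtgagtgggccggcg
Syce2: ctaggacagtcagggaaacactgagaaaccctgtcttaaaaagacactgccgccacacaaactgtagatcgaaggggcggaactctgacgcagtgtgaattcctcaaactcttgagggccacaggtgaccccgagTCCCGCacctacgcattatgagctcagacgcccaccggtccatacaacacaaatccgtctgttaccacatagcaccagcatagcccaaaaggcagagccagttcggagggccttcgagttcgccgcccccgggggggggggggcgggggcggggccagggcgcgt
Dnmt3l: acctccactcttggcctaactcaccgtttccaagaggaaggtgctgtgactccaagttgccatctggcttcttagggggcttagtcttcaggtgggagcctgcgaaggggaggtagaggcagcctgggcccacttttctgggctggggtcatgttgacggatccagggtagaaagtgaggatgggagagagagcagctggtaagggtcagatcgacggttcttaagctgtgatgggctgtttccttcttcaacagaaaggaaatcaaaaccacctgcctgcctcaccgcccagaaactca
The Mael promoter lies at chr1:166238695-166238994 (minus strand) and had 24 CpG sites. The Sycp1 promoter, at chr3:102936051-102936350 (minus strand), had 21 CpG sites. The Sycp3 promoter, at chr10:88459337-88459636 (plus strand), had 15 CpG sites and 2 E-boxes. The Ddx4 promoter, at chr13:112652261-112652560 (minus strand), had 38 CpG sites. The Syce2 promoter, at chr8:84871861-84872160 (plus strand), had 19 CpG sites and no E-box. A second listed Syce2 start, with the window chr8:84872008-84872307, had 33 CpG sites and an E-box. The Dnmt3l promoter, at chr10:78042037-78042336 (plus strand), had 6 CpG sites and neither motif, but another of its 3 listed starts, chr10:78049592-78049891, held an E-box.

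**Figure D1:**
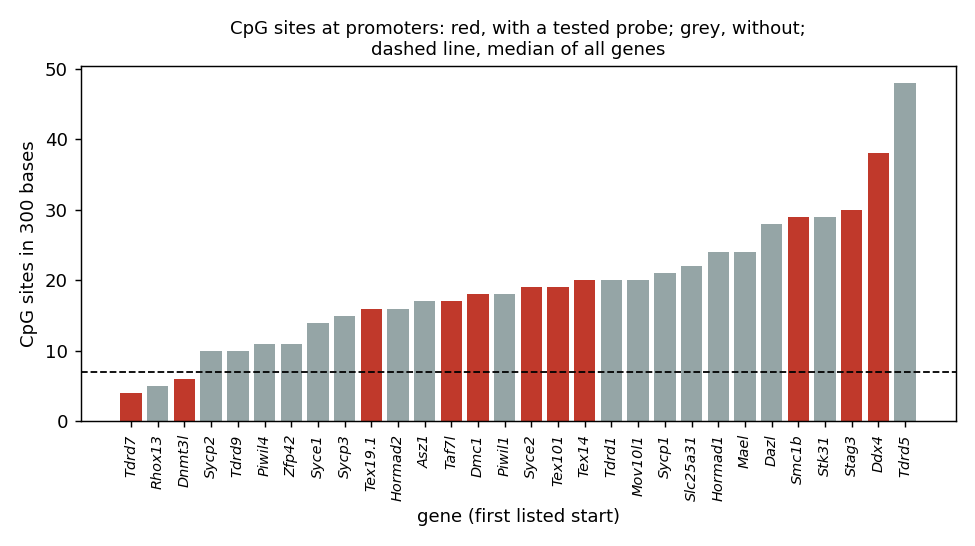
CpG sites in the 300-base promoter of each of 30 member genes (vertical axis, count), in rising order. Red bars are genes with a tested probe, grey bars are genes without, and the dashed line is the median of all genes, 7. Tdrd7 had the fewest sites by its first listed start, 4 (32 at its other starts), and Tdrd5 the most, 48, and red and grey bars are mixed along the order.

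A probe counted as above background where the scanner software marked its spot as well above local background, and as detected in a channel where this held on at least 2 of 3 arrays. Treated marrow had 8 member genes detected and mock marrow had 9, while treated lung and mock lung had 13 each, of 36. By probe, 10 of 43 were detected in treated marrow (23.3%), against 56.2% of all array probes. In mock marrow 10 of 43 were detected (23.3%), against 53.3% of all. In treated lung 13 of 43 were detected (30.2%), against 66.7% of all, and in mock lung also 13 of 43 (30.2%), against 60.7% of all.

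The share of member probes detected lay below that of the array in each of the 4 combinations of tissue and channel. Of the 36 genes, 18 were above background on no array in either channel. These 18 genes were Asz1, Dazl, Hormad1, Mael, Mov10l1, Piwil1, Piwil4, Rhox13, Slc25a31, Stk31, Sycp1, Sycp3, Tdrd1, Tdrd5, Tdrd6, Tdrd9, Tex11 and Zfp42. They include the synaptonemal complex proteins Sycp1 and Sycp3, the germ cell RNA binding protein Dazl, and the piRNA-binding proteins Piwil1 and Piwil4. Mael, Mov10l1, Asz1 and several Tudor-domain genes serve in the making of piRNAs. By probe, 23 of 43 (53.5%) were above background on no array, against 23.8% of all probes. A further 3 genes, Hormad2, Syce1 and Sycp2, were above background on 1 array at most in any combination of tissue and channel. The other 15 genes were detected in at least 1 combination, and 6 of them (Dmrt1, Dnmt3l, Stag3, Syce2, Taf7l and Tdrd7) in all 4.

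**Figure D2:**
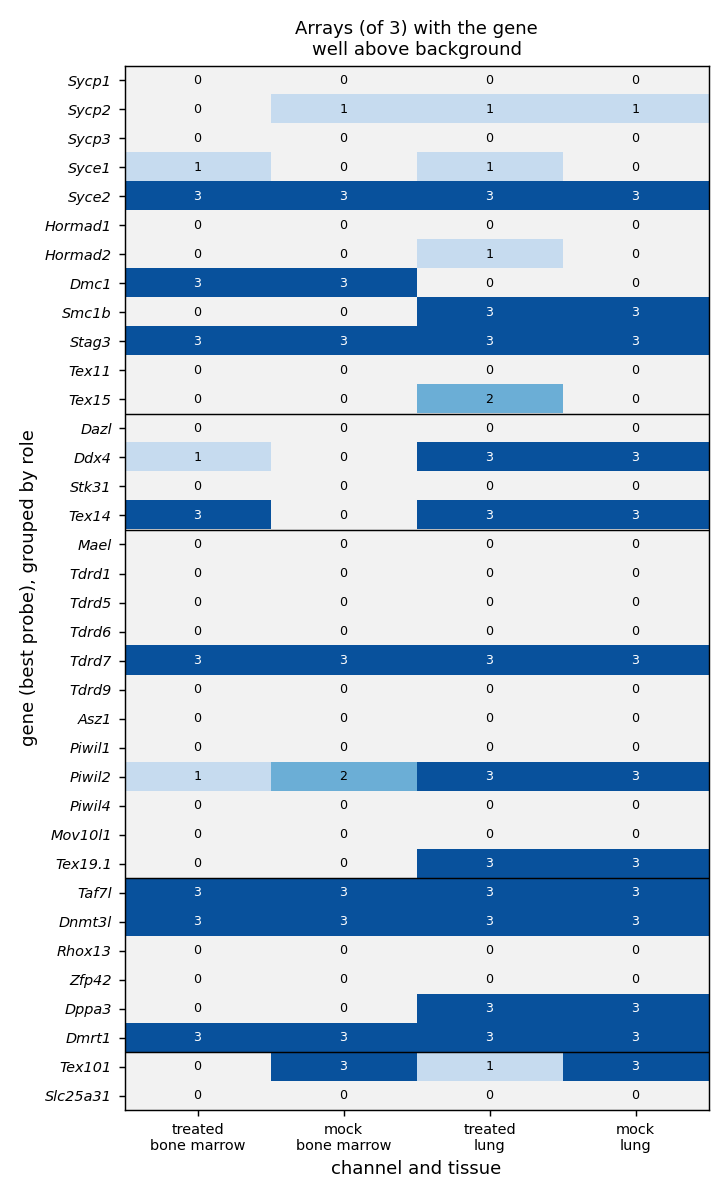
Number of arrays, of 3, on which the best probe of each of 36 genes was well above background (cell number and colour), for treated and mock channels of bone marrow and lung. Horizontal lines separate groups of genes by role, and 18 genes show 0 in all 4 columns.

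A probe counted as gained where it was above background on at least 2 treated arrays and at most 1 mock array. Treated RNA was always in Cy5 and mock RNA in Cy3, so a gain cannot be credited to the drugs rather than the dye. By this rule, probes of 2 members were gained in marrow and of 1 in lung. In marrow these were Tex14, a protein of the germ cell intercellular bridge, and 1 of 3 probes of Dmc1, the meiotic strand-exchange recombinase. As a gene Dmc1 was already detected in mock marrow, on all 3 arrays by its other probes, so only the probe crossed the rule. Among member probes not detected in mock marrow, 2 of 33 were gained (6.06%), against 11.7% of all such probes. In lung the gained gene was Tex15, which acts in meiotic recombination and in piRNA-guided silencing, and 1 of 30 member probes (3.33%) was gained, against 16.4% of all. The share of members gained was below that of all probes in both tissues.

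Losses were as few as gains. In marrow, Piwil2 and Tex101 were above background in mock and not in treated cells, 2 of 33 probes not detected in treated marrow (6.06%), against 5.8% of all. The Piwil2 loss was absent without marrow replicate 1 or 2, and its log2 ratio in marrow was -0.11 ± 0.07 (SD, n = 3 arrays, adjusted p = 0.345). In lung, Tex101, a surface protein of germ cells, was lost, 1 of 30 (3.33%), against 1.17% of all. Leave-outs used a stricter rule, with all remaining arrays of 1 channel above background and none of the other. By that rule the lung loss of Tex101 was absent without lung replicate 2 or 3, though the main rule was still met. Tex101 was above background on 0 treated and 3 mock arrays in marrow, and on 1 treated and 3 mock arrays in lung. In marrow it was 1.15-fold higher in mock cells than in treated cells, with limma's adjusted p = 0.0742. In lung adjusted p was 0.0578, and 0.0465 without marrow replicate 3. Such folds set the mean of the bright group against the dim probe's own signal, which was never below the lowest signal among detected probes. They are measured ratios and not lower bounds.

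The 2 channels differed in the signal that they gave where no transcript was present, which bears on each gain and loss. Negative control spots had a median signal above local background between 5.67 and 7.49 in treated marrow (Cy5) and between 37.3 and 41.0 in mock marrow (Cy3). In lung it was between 4.71 and 5.13 in treated cells and between 13.8 and 16.7 in mock cells. The 23 silent member probes had medians per array between 8.69 and 9.88 in treated marrow, against 44.6 and 49.3 in mock marrow. In lung their medians lay between 9.31 and 10.03 in treated cells, against 15.3 and 20.2 in mock cells. The medians of the silent members lay a few units above those of the negative controls in their own channel. Of the 23 probes, 2 to 4 per array exceeded the 95th percentile of the negative controls in treated marrow and 9 to 14 in mock marrow. In lung it was 7 to 11 in treated cells and 4 to 9 in mock cells. Silent here thus means only that no spot was marked as well above background. The part of the channel background in the gains and losses was not tested.

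The answer for the silent genes depended on where background was set. With the scanner's looser flag for a positive and significant signal, 11 of 23 member probes were gained in lung (47.8%), against 27.6% of all, and none was lost (0 of 12), against 8.8% of all. The 10 genes gained in lung were Dmc1, Piwil1, Rhox13, Sycp1, Sycp2, Tdrd5, Tdrd6, Tdrd9, Tex11 and Zfp42. In marrow the same flag gave 3 gains of 10 probes (30%), against 26.1% of all, for Asz1, Piwil1 and Sycp3. It gave 15 losses of 22 probes in marrow (68.2%), against 53.1% of all. With a signal over the 95th percentile of the negative controls, 8 of 23 member probes were gained in lung (34.8%), against 26% of all, for Dmc1, Mael, Piwil1, Rhox13, Tdrd5 and Zfp42. By that measure 1 of 16 was lost in lung (6.25%), against 12.8% of all. In marrow it gave 1 gain of 13, Tex14 (7.69%), against 20.3% of all, and 15 losses of 27 (55.6%), against 55.8%. The gains in lung by these rules named genes other than Tex15, and the log2 ratios of the member probes that did not pass the filter on detection lay between -0.14 and 0.18 in lung and between -0.18 and 0.18 in marrow.

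**Figure D3:**
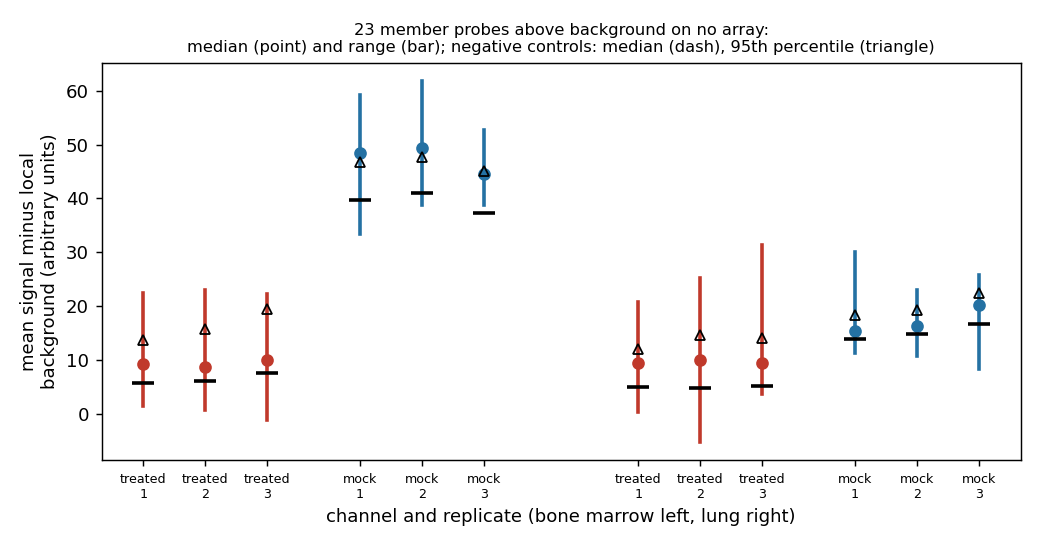
Signal minus local background (arbitrary units) of the 23 member probes above background on no array, by channel, tissue and replicate. Points are medians, bars the range, dashes the negative control median and triangles their 95th percentile; mock marrow sits between 44.6 and 49.3 and treated marrow between 8.69 and 9.88.

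Ratios were then tested in limma for the 17 member probes, of 15 genes, that passed the filter on detection, out of 27695 probes in all. Ratios are treated over mock by the labelled dyes, whereas the headings of the authors' own ratios name mock over treated. In marrow, 5 member probes of 4 genes were higher in treated cells (29.4%), against 6.83% of all tested probes, and 1 was lower (5.88%), against 6.92%. In lung, 4 member probes were higher (23.5%), against 19.1% of all, and 2 were lower (11.8%), against 14.4%. The median log2 ratio of treated over mock was 0.07 for tested member probes and 0.02 for all tested probes in marrow. In lung it was 0.14 for members and 0.01 for all. The 26 member probes that did not pass had medians of -0.02 in marrow and -0.03 in lung. A filter that a probe can pass through its brighter channel alone favours probes that differ, so these counts describe the tested probes and not the whole list.

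**Figure D4:**
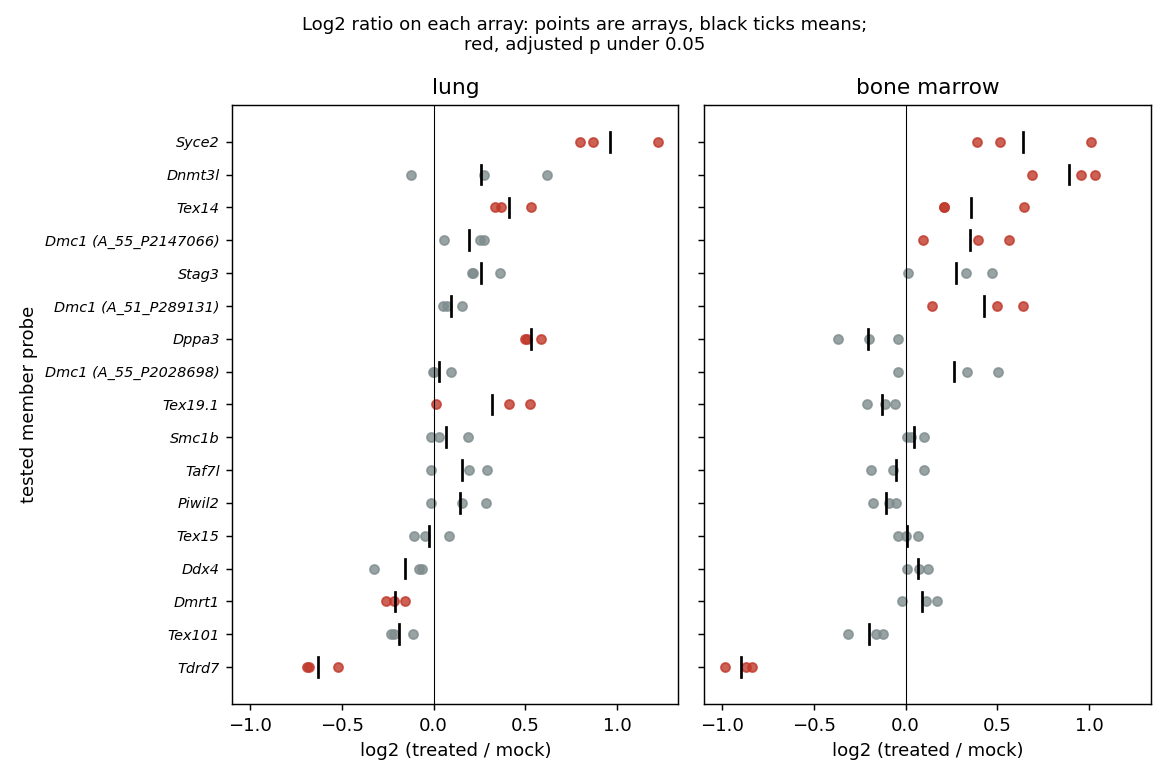
Log2 ratio of treated over mock (horizontal axis) of the 17 tested member probes in lung and in bone marrow. Points are single arrays, black ticks are means of 3 arrays and red marks an adjusted p under 0.05; Syce2 lies right of 0 and Tdrd7 left of 0 on all 6 arrays.

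Markers of the sorted cells were present, with 7 of 7 M-MDSC genes on the array above background in both channels of both tissues. In lung, markers of other cells moved with treatment on the same arrays that gave the germline calls. Epithelial markers rose for 3 of 4 genes and endothelial markers for 3 of 3, while B cell markers fell for 3 of 3 and T cell markers for 2 of 3. The summed epithelial signal in lung was between 82390 and 128700 in treated cells, against 9307 and 17220 in mock cells, as scanned. The summed endothelial signal was between 9604 and 12570 in treated cells, against 2186 and 2906 in mock cells. In marrow, Cdh1 and Cd5 rose, and of the somatic gonad markers Amh, Inha, Cyp17a1, Hsd3b6 and Foxl2, 2 of 5 were detected, and Cyp17a1 had a log2 ratio of -0.33 in lung (adjusted p = 0.0198). The part of these cells in the results on the germline genes was not tested.

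Among meiotic genes, Syce2 rose in both tissues. Syce2 encodes a central element protein of the synaptonemal complex, which holds paired chromosomes together. Its probe lies at chr8:87411133-87411192 on mm9, plus strand, and was above background on every array. In lung its signal above local background was 1310, 814 and 1034 in treated cells, against 311, 224 and 287 in mock cells. In marrow it was 1164, 1412 and 2876 in treated cells, against 443, 528 and 489.9 in mock cells. Such signals are as scanned, before the dyes were balanced, so only the normalized ratios compare the channels. The log2 ratio was 0.96 ± 0.23 in lung (SD, n = 3 arrays, adjusted p = 0.0014) and 0.64 ± 0.33 in marrow (SD, n = 3 arrays, adjusted p = 0.021), and was above 0 on every array. The marrow call was lost without marrow replicate 1, 2 or 3, with adjusted p of 0.0601, 0.0515 and 0.0764. Syce2 overlaps Gcdh, whose probe had a log2 ratio of 0.17 ± 0.10 in lung (SD, n = 3 arrays, adjusted p = 0.0837) and 0.10 ± 0.07 in marrow (SD, n = 3 arrays, adjusted p = 0.305).

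Dmc1 was above background in marrow, and on no lung array by any of its 3 probes. All 3 probes lie on chromosome 15 of mm9, minus strand. The probes A_55_P2147066 and A_55_P2028698 were above background on all 3 arrays in both channels of marrow, and are printed because they measure the same gene and yet fell on either side of the threshold.
A_55_P2147066, chr15:79419182-79419241: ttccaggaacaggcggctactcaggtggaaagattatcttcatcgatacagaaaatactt
A_55_P2028698, chr15:79415293-79415352: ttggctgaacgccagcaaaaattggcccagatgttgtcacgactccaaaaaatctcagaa
The first had log2 ratios of 0.09, 0.39 and 0.56 on the marrow arrays, a mean of 0.35 ± 0.24 (SD, n = 3 arrays, adjusted p = 0.0489). The second had -0.04, 0.33 and 0.50, a mean of 0.26 ± 0.28 (SD, n = 3 arrays, adjusted p = 0.111, and 0.0406 without marrow replicate 1). The third, A_51_P289131 at chr15:79392424-79392483, was above background on 3 treated and 0 mock arrays and had 0.14, 0.50 and 0.64. It was 1.34-fold higher in treated cells (adjusted p = 0.0264), but it passed the filter on detection through treated marrow alone. All 3 probes were lowest on marrow replicate 1 and highest on replicate 3. Without marrow replicate 2 or 3, or lung replicate 2, adjusted p for A_51_P289131 was 0.145, 0.111 and 0.052. Without the same 3 arrays or lung replicate 3, adjusted p for A_55_P2147066 lay between 0.0663 and 0.212.

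Stag3, a meiotic cohesin subunit, was above background on all 12 channel readings and had a log2 ratio of 0.26 ± 0.09 in lung (SD, n = 3 arrays, adjusted p = 0.0608). Its log2 ratio in marrow was 0.27 ± 0.23 (SD, n = 3 arrays, adjusted p = 0.0831). Without marrow replicate 1, adjusted p was 0.0287 in lung and 0.0442 in marrow. Smc1b, the meiotic form of a cohesin ring subunit, was above background on every lung array in both channels and on no marrow array, with a log2 ratio of 0.07 ± 0.11 (SD, n = 3 arrays, adjusted p = 0.456). Tex15, though gained by flag in lung, had a log2 ratio of -0.02 ± 0.10 there (SD, n = 3 arrays, adjusted p = 0.81), and its other probe was silent on every array. Its signal above local background in lung was 22.7, 38.1 and 34.8 in treated cells, against 24.2, 25.0 and 32.6 in mock cells.

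The bridge protein gene Tex14 rose in both tissues, and Ddx4 passed in neither. Tex14 had log2 ratios of 0.37, 0.53 and 0.34 in lung, a mean of 0.41 ± 0.11 (SD, n = 3 arrays, adjusted p = 0.0143). In marrow it had 0.21, 0.65 and 0.21, a mean of 0.36 ± 0.25 (SD, n = 3 arrays, adjusted p = 0.0497). In marrow, where it was above background in treated cells only, it was 1.28-fold higher in treated cells. Its signals there were 50.3, 59.8 and 46.2 in treated marrow, against 46.3, 45.2 and 46.7 in mock marrow, where the negative controls lay between 5.67 and 7.49 in treated and between 37.3 and 41.0 in mock. The marrow call held under 5 of 16 alternatives, with adjusted p between 0.00281 and 0.328. It was lost without marrow replicate 1, 2 or 3 or lung replicate 2 or 3, where adjusted p lay between 0.066 and 0.216. Without lung replicate 2, adjusted p in lung was 0.0844. Ddx4, the germ cell RNA helicase also called Vasa, was above background on all 3 arrays of both channels in lung, and on 1 treated and 0 mock arrays in marrow. Its log2 ratio was -0.16 ± 0.15 in lung (SD, n = 3 arrays, adjusted p = 0.128) and 0.07 ± 0.06 in marrow (SD, n = 3 arrays, adjusted p = 0.547).

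In the piRNA pathway, the single call in both tissues was a fall of Tdrd7, a Tudor-domain protein of germ granules that is also made in somatic tissues. Its log2 ratios were -0.69, -0.52 and -0.68 in lung, a mean of -0.63 ± 0.09 (SD, n = 3 arrays, adjusted p = 0.000458). In marrow they were -0.87, -0.84 and -0.99, a mean of -0.90 ± 0.08 (SD, n = 3 arrays, adjusted p = 0.00152). Tdrd7 had levels of 0.65 in lung and 0.54 in marrow relative to mock. It kept its call in every leave-out of an array, but lost it with median centring (adjusted p = 0.51 in lung and 0.383 in marrow), and in lung with scaling between arrays (adjusted p = 0.0516). Tex19.1, which restrains retrotransposons in germ cells, was above background on every lung array and no marrow array, and in lung it rose by 0.32 ± 0.27 (SD, n = 3 arrays, adjusted p = 0.041) on the log2 scale. That call was lost without lung replicate 2 or 3 (adjusted p = 0.178 and 0.211), and without marrow replicate 1, 2 or 3, where it lay between 0.0523 and 0.0706. Piwil2, a piRNA-binding protein, had a log2 ratio of 0.14 ± 0.15 in lung (SD, n = 3 arrays, adjusted p = 0.167).

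Among transcription and chromatin regulators, Dnmt3l rose in marrow, Dppa3 rose in lung and Dmrt1 fell in lung. Dnmt3l is the catalytically inactive partner of the DNA methyltransferases Dnmt3a and Dnmt3b in germ cells. Its log2 ratios were 0.69, 0.96 and 1.03 in marrow, a mean of 0.89 ± 0.18 (SD, n = 3 arrays, adjusted p = 0.00774), and adjusted p without marrow replicate 2 was 0.0556. In lung they were -0.12, 0.27 and 0.62, a mean of 0.26 ± 0.37 (SD, n = 3 arrays, adjusted p = 0.18), and adjusted p without lung replicate 1 was 0.0268. The difference, lung minus marrow, was -0.64 (adjusted p = 0.0595).

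Dppa3, also called Stella, protects methylation in the early embryo. It was above background on every lung array in both channels and on no marrow array. Its signals in lung were 213, 161 and 170.4 in treated cells, against 79.1, 47.0 and 50.3 in mock cells. The log2 ratios were 0.51, 0.50 and 0.58 in lung, a mean of 0.53 ± 0.05 (SD, n = 3 arrays, adjusted p = 0.00151). In marrow they were -0.04, -0.37 and -0.20, a mean of -0.20 ± 0.16 (SD, n = 3 arrays, adjusted p = 0.101), from a probe not above background there. The fitted difference between tissues was 0.73 (adjusted p = 0.0053), but its marrow term is a ratio of signals at background, so it does not measure a response in marrow.

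Dmrt1, a transcription factor of the gonad, had log2 ratios of -0.26, -0.15 and -0.21 in lung, a mean of -0.21 ± 0.05 (SD, n = 3 arrays, adjusted p = 0.0361), and 0.09 ± 0.10 in marrow (SD, n = 3 arrays, adjusted p = 0.372). The lung call held under 8 of 16 alternatives, and adjusted p was 0.122, 0.0856 and 0.131 without lung replicate 1, 2 or 3, and 0.0556 without marrow replicate 1. Taf7l, a germ cell form of a general transcription factor subunit, was detected in both tissues with a log2 ratio of 0.16 ± 0.15 in lung (SD, n = 3 arrays, adjusted p = 0.187). Its probe shared a 16-base stretch with probes of 7 other genes, more than any other member probe, and which transcripts its signal holds was not tested.

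Across all 17 tested member probes the fitted ratio differed between the tissues for 1 probe, that of Dppa3, higher in lung (5.88%) and not above background in marrow, against 9.44% of all probes. None was lower in lung (0%), against 5.62% of all, with limma at an adjusted p under 0.05. At an unadjusted p under 0.05, 7 member probes differed, 4 higher and 3 lower in lung. The share of all probes at that threshold was not computed. This count and the later ones at an unadjusted p thus cannot be read as an excess. Single arrays moved these calls: Dmc1 (A_51_P289131) passed without marrow replicate 1 (adjusted p = 0.04), Tex19.1 without lung replicate 1 (0.011) and Dnmt3l without lung replicate 3 (0.0234). The Dmc1 probe was above background on no lung array and Tex19.1 on no marrow array. For those probes 1 term of the difference is thus a ratio of background signals, as for Dppa3.

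The other genes of these pathways are read against the shares of all tested probes, 19.1% higher and 14.4% lower in lung, and 6.83% higher and 6.92% lower in marrow. Of 14 tested genes among 20 other meiosis and piRNA genes on the array, 2 rose in lung (Tdrkh by 0.56 and Rec8 by 0.20 on the log2 scale) and 1 fell in marrow (Prdm9, by 0.32). Tdrkh, a Tudor-domain partner of piRNA trimming, was above background on 3 treated and 0 mock lung arrays. Of 27 tested germ cell regulators and cancer-testis genes, 3 rose in lung (Kit by 0.41, Lin28a by 0.25 and Dppa5a by 0.21) and 3 in marrow (Gtsf1 by 0.60, Gtsf1l by 0.48 and Nanog by 0.37). Gtsf1l was above background on 3 treated and 0 mock marrow arrays, and Dppa5a on 3 treated and 0 mock lung arrays. Tdrkh, Gtsf1l and Dppa5a passed the filter on detection through the treated channel alone, so their rises and their flags are not separate results. Of 9 tested genes of late spermatids, none passed in either tissue by limma, and at an unadjusted p under 0.05 there were 2 in lung and 1 in marrow. By the rule for gains, 3 other meiosis and piRNA genes, 7 germ cell regulators and cancer-testis genes and 3 late spermatid genes were gained in lung, of 20, 44 and 14 on the array. In marrow 3, 3 and 2 were gained. Of the genes on the array, 10, 18 and 5 were already detected in mock lung, and 8, 15 and 5 in mock marrow. Over all probes not detected in mock cells, 16.4% were gained in lung and 11.7% in marrow. Those are shares of undetected probes, so they do not compare with counts over all genes on the array.

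All 18 repressors of germline genes were detected in both channels of both tissues. In lung 2 were higher by the brightest probe of each gene (Ehmt1 by 0.64 and Yaf2 by 0.38). Another 3 were lower, Max with a log2 ratio of -0.48, Atf7ip with -0.44 and Rybp with -0.38. Of all tested probes, 33.5% were called there in either direction. A second Ehmt1 probe had a log2 ratio of -0.07 in lung (limma's adjusted p = 0.516), and a second Yaf2 probe had 0.27 (0.0104). In marrow none of the 18 passed by limma, and 5 did at an unadjusted p under 0.05. Among 8 DNA methylation enzymes and regulators, Dnmt3a rose in lung by 0.91 and Dnmt3b rose in marrow by 0.76 on the log2 scale. The other Dnmt3b probes had 0.33 and 0.27 in marrow (limma's adjusted p = 0.0274 and 0.0901). Dnmt1, the maintenance methyltransferase that azacytidine traps, had a log2 ratio of -0.19 ± 0.18 in lung (SD, n = 3 arrays, adjusted p = 0.124) and -0.01 ± 0.13 in marrow (SD, n = 3 arrays, adjusted p = 0.93).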

How the data were processed

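Members, lists and tests were chosen with earlier results of these data known. Spot intensities are as deposited by the authors, from Agilent Feature Extraction 10.7.3.1 on build mm9, per the file headers. The deposited matrices hold log2 ratios, made by the authors with limma per the submitters' processing notes. Their headings name mock over treated, but their values follow Cy5 over Cy3 (correlation 0.9995 to 0.99999 with ratios recomputed from median signals), so a positive value means higher in treated cells by the dyes in the labels.

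Ratios were computed with limma 3.58.1 in R 4.3.3 from mean signals: normexp correction with an offset of 50, loess per array (weight 0 for control spots), outlier spots left out, and spots averaged per probe. Of 39429 probes, 27695 were kept, those with 2 or more arrays above background in 1 or more of the 4 combinations of tissue and channel. One mean per tissue was fitted over all 6 arrays with empirical Bayes moderation and Benjamini-Hochberg adjustment over all kept probes, at a threshold of 0.05. Adjusted p-values throughout are from this limma fit. The number of arrays limits the precision. The fit was tested on simulated data. Every member was named, and those detected or called were given by array. Alternatives changed the background, normalization, filter, probe choice, fit and arrays. The probe's exon was not analysed here.

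The deviations of same-numbered arrays of the 2 tissues from their tissue means had correlations of 0.0115, 0.123 and 0.0505. For arrays with unlike numbers they lay between -0.12 and 0.0346. With 3 arrays per tissue, these values cannot show whether same-numbered samples came from the same mice. The main fit did not pair them. The labels call the arrays biological replicates, and p-values measure the spread between these pools of mice.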

Additional observations from a re-analysis of the deposited data

Results flagged for a closer look

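Dppa3 was the single member whose fitted ratio differed between the tissues, at 0.73 on the log2 scale, lung minus bone marrow (adjusted p = 0.0053, limma). The ratio was above 0 on 3 of 3 lung arrays and below 0 on 3 of 3 marrow arrays, where the probe was not above background in either channel. The marrow term is thus a ratio of background signals, and the test does not show a difference in response. The difference kept its sign under all 15 alternatives, between 0.65 and 2.70, and passed the threshold under 14 of them, with adjusted p between 0.00173 and 0.136.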

How the results depend on the processing

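Every called member kept its direction under every alternative tried. Median centring instead of loess, which moved the median log2 ratio of all tested probes to 0.19 in marrow and 0.11 in lung, left 0 member probes called in marrow, lung or the difference (6, 4 and 4 at an unadjusted p under 0.05, limma), from 6, 6 and 1. Over all probes it called 0% in marrow, 3.91% in lung and 0.137% in the difference. The scanner's processed signals gave 10 member probes in marrow and 6 in the difference (28.6% and 18.1% of all probes, against 13.8% and 15.1% before), and turned the Tex14 difference to -1.90. Background from negative control spots gave 5 in the difference (21.4% of all probes). Scaling between arrays gave 3 in lung (26.6% of all, against 33.5% before), and 1 probe a gene gave 3 in marrow (14.4% of all). It is not known whether the replicate numbers pair the samples. With the number as a block, the counts were 5 in marrow, 4 in lung and 2 in the difference. Over all probes the block fit called 11.1%, 31.7% and 13.5%. Leaving out each array in turn gave between 1 and 6 calls in marrow. The 1 was without marrow replicate 2, where 3.81% of all probes were called. In lung it gave between 3 and 6, with 3 without lung replicate 2, where 23.7% of all were called. In the difference it gave between 1 and 2, while the share of all probes lay between 6.39% and 12.5%. By the stricter rule of the leave-outs, the count gained was 2 in marrow in all of them and between 0 and 1 in lung (0 without lung replicate 2 or 3). It was 1 in marrow over the 95th percentile of negative controls, and in lung 6 by that measure, 10 by the positive-and-significant flag and 0 with all 3 treated and no mock arrays. Of single probe results, 670 kept call and direction, 57 lost the call, 31 gained it and 31 uncalled values changed sign. The causes were not tested.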
